A study of Mus musculus with 83 samples.

Results

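The 8 genes described here encode the beta-3 adrenergic receptor (Adrb3), a phosphodiesterase (Pde3b), a regulatory subunit of protein kinase A (Prkar2b), and proteins of triglyceride breakdown. The last are the lipases that strip fatty acids from stored triglyceride (Pnpla2, Lipe and Mgll), a lipase co-activator (Abhd5) and a lipase inhibitor (G0s2). The 8 genes were chosen by gene symbol, as a pathway, with earlier results of these data known. Their counts beside the shares of all genes are therefore descriptions and not tests of the set. Of the 8, 7 had values among the 11144 genes of the 4 culture tables, and all 8 had values among the 29082 RefSeq transcripts of the tissue table. Pnpla2 had a tissue value only, and the reason it has no row in the culture tables is not known.

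The series followed brown preadipocytes from interscapular brown fat of newborn mice as they became fat cells in culture. The cells, of C57BL/6J background, were immortalized with SV40 large T antigen by retrovirus and carried floxed Pparg alleles (Pparg-flox/flox), with no Cre named in the labels. RNA was sequenced at day -3, when the cells were proliferating, at day 0, when they were confluent, at day 2, as immature adipocytes, and at day 7, as mature adipocytes. The medium that induced differentiation at day 0 contained IBMX, an inhibitor of phosphodiesterases, at 0.5 mM, with dexamethasone at 2 μg/ml, indomethacin at 0.125 mM, T3 at 1 nM and insulin at 0.02 μM. From day 2 only T3 and insulin were kept. No beta-adrenergic agonist is listed. One more library was of adult interscapular brown fat, from C57BL/6J animals 16 weeks old. Every group is a single library. Differences therefore come without replicates, tests or p-values. The labels do not say whether the cells are 1 clone or how many mice gave the tissue.

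In brown fat, noradrenaline from sympathetic nerves binds beta-adrenergic receptors, which act through a stimulatory G protein to make adenylyl cyclase produce cyclic AMP. Cyclic AMP releases the catalytic subunits of protein kinase A (PKA) from their regulatory subunits. The kinase phosphorylates perilipin on the lipid droplet and hormone-sensitive lipase, the product of Lipe. Perilipin then frees ABHD5, which activates adipose triglyceride lipase, the product of Pnpla2, while G0S2 inhibits that enzyme. Adipose triglyceride lipase, hormone-sensitive lipase and monoglyceride lipase, the product of Mgll, remove the fatty acids of a triglyceride in turn, and brown fat burns these for heat. PDE3B breaks cyclic AMP down and is the phosphodiesterase through which insulin restrains lipolysis.

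The identity of the libraries was checked with marker genes. The summed level of the 7 adipocyte markers (Fabp4, Adipoq, Plin1, Cd36, Lpl, Pparg and Cebpa) was 79.7, 149, 7191 and 6755 FPKM at days -3, 0, 2 and 7 and 8090 RPKM in the tissue. Brown fat markers summed to 151 FPKM at day 7 over the 6 of 7 with culture values, of which Cox7a1 made up 132, and to 3498 RPKM over 7 in the tissue. Ucp1, the uncoupling protein that defines brown fat, was at 1.22 FPKM at day 7 and 1015 RPKM in the tissue, so the mature culture held little of this defining transcript. Preadipocyte markers, 5 of 6 with culture values, summed to 38.9, 37.3, 43.8 and 15.6 FPKM over the same 4 days. One of them, Pdgfra, was at 1.64, 6.17, 31.1 and 11.7 FPKM and so was higher at day 7 than at day -3. The tissue library also held 5 of 5 skeletal muscle markers, summing to 1167 RPKM, and 4 of 4 endothelial markers, summing to 125 RPKM. In the day 7 culture the 1 muscle marker with a value, Acta1, was at 1.14 FPKM. In bulk libraries, more cells of a type and more RNA per cell cannot be told apart.

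All 7 genes with culture values were at least 2-fold higher at day 2 than at day 0, as were 6.18% of all compared genes, and at day 7 than at day -3, as were 20.3%. Differences are of log2(FPKM + 1), a scale that understates those of genes with low values. FPKM are fragment counts divided by transcript length and by the number of mapped fragments. The rule of size called a gene higher or lower where this difference reached 1, that is 2-fold. It was applied where one or both libraries were at 1 FPKM or above. A gene below 1 FPKM in the earlier library could thus be called higher but not lower. On this scale G0s2 and Lipe had the largest differences, an order that depends on the pseudocount. With 0.1 in place of 1, Mgll had the largest difference between day 0 and day 2, at 6.26 beside 6.04 for G0s2 and 5.57 for Lipe, and it passed Lipe over the whole course, at 7.80 beside 7.67. As plain ratios of day 2 to day 0, Mgll was 179-fold, G0s2 70.6-fold, Adrb3 59.4-fold and Lipe 49.0-fold higher. Between day 2 and day 7 the genes parted: Adrb3, Mgll and G0s2 were higher again by this rule, as were 9.62% of all compared genes, while Lipe, Pde3b, Prkar2b and Abhd5 were within 2-fold.

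**Figure D1:**
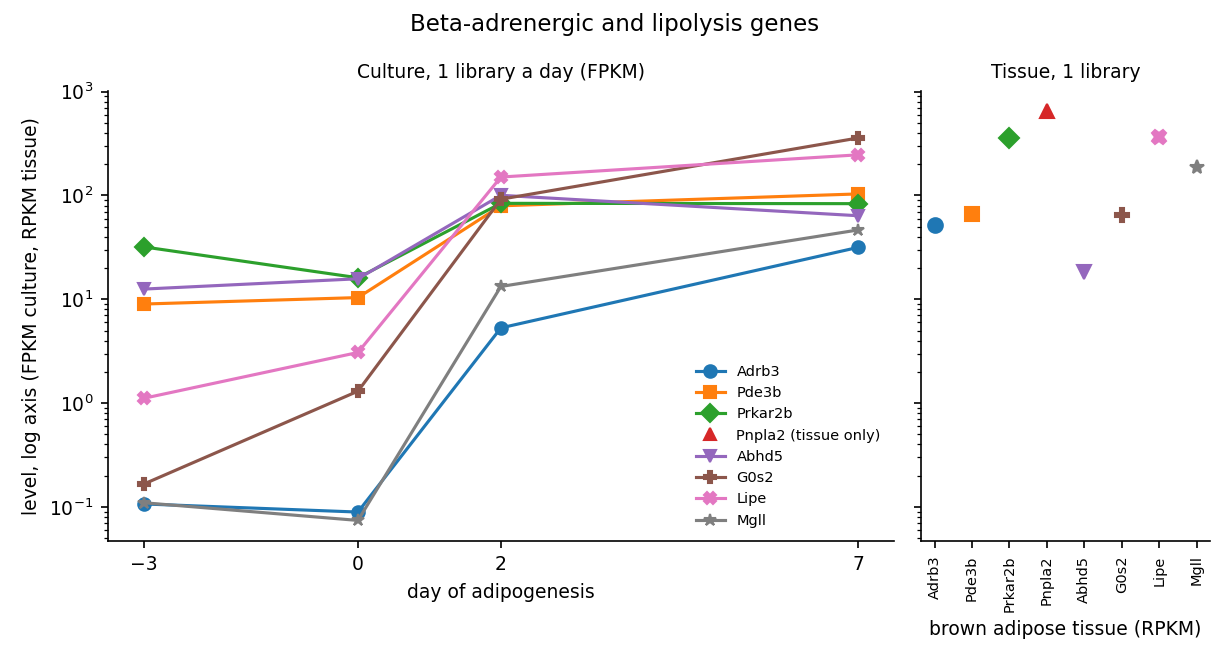
Level of each gene by day in the 4 culture libraries (left, FPKM) and in the tissue library (right, RPKM), both on 1 log axis, each point being 1 library. In culture all 7 lines are higher at day 2 than at day 0. Abhd5 is at 63.8 FPKM at day 7 and, as the lowest point of the tissue panel, at 18.4 RPKM.

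The receptor gene had most of its level late. Adrb3 measured 0.107 and 0.0893 FPKM in the proliferating and confluent libraries, 5.30 in immature and 31.6 in mature adipocytes. It was close to 0 in both preadipocyte libraries, and its day 2 level was 16.8% of its day 7 level, the smallest such share of the 7 genes. Its difference was 2.53 on the log2 scale from day 0 to day 2 and 2.37 from day 2 to day 7. These lie at the 98.8 and 98.5 percentiles of all genes compared at those steps. In rank within the library it moved from the 1.45 percentile of listed genes at day 0 to the 76.5 percentile at day 7.

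Pde3b, which degrades cyclic AMP, measured 9.0 and 10.4 FPKM before induction (days -3 and 0), then 79.5 on day 2 and 103.5 on day 7. It was thus already measurable in preadipocytes, was 7.66-fold higher at day 2 than at day 0, and had reached 76.8% of its day 7 level by then. The log2 difference of the last step was 0.38.

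Prkar2b, the RIIbeta subunit that holds PKA inactive until cyclic AMP binds, had 32.0 FPKM in proliferating and 16.1 in confluent cells, with 84.0 on day 2 and 83.4 on day 7. It was lowest at confluence, where the difference from day -3 was -0.95, just inside the 2-fold rule. Its day 2 and day 7 values were almost equal.

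Lipe, the gene of hormone-sensitive lipase, measured 1.11 and 3.07 FPKM before induction, 150.5 on day 2 and 246 on day 7. It had the highest level of the 7 genes at day 2, and 61.1% of its day 7 level was reached then. The log2 difference from day 0 to day 2 was 5.22, at the 99.9 percentile of all compared genes.

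Mgll, which completes triglyceride breakdown, had 0.110 FPKM in proliferating and 0.0741 in confluent cells, 13.3 in immature and 46.6 in mature adipocytes. Like Adrb3 it was near 0 before induction, and its day 2 level was 28.5% of that at day 7. The log2 differences of the last 2 steps were 3.73 and 1.73. The ratio of Lipe to Mgll was 10.1 and 41.5 before induction, 11.3 on day 2 and 5.29 on day 7. The ratios before induction rest on Mgll values near 0.

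The genes of the activator and the inhibitor of adipose triglyceride lipase stood in different proportions at day 2 and day 7. Abhd5 measured 12.5 and 15.8 FPKM before induction, 100.4 on day 2 and 63.8 on day 7. Its day 2 value was its highest, 157% of that at day 7, and the log2 difference between them was -0.65, which is within the 2-fold rule. G0s2 measured 0.166 FPKM in proliferating and 1.30 in confluent cells, 92.0 on day 2 and 358 on day 7. Only Adrb3 and Mgll of the 7 genes were lower at day -3, and none was higher at day 7, where it stood at the 99.3 percentile of all listed genes. The log2 difference between day -3 and day 7 was 8.27. Within a library, the ratio of G0s2 to Abhd5 was 0.0132 and 0.0827 before induction, then 0.916 on day 2 and 5.61 on day 7. Both genes were thus at near equal levels at day 2, and G0s2 was well above Abhd5 at day 7.

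The order of levels was reshuffled along the way. Prkar2b was the highest of the 7 genes at days -3 and 0, Lipe at day 2 and G0s2 at day 7. Adrb3 was the lowest at days -3, 2 and 7, and Mgll at day 0. With 1 library a day, the spread that would separate neighbours in these orders is unknown. Values such as 79.5, 84.0 and 92.0 FPKM for Pde3b, Prkar2b and G0s2 at day 2 are given with no claim that they differ.

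Promoter sequences, from 250 bases before to 50 after a start site, are shown for Lipe and G0s2, which had the highest levels of the 7 genes at day 2 or day 7, and for Abhd5, whose ratio to G0s2 is given above. They come from RefSeq on build GRCm38.p6, whereas the expression files were made on mm9. The table held 9 promoters of 6 of the 8 genes, namely G0s2, Mgll, Lipe, Pnpla2, Abhd5 and Prkar2b. Capitals mark exact matches on either strand to the nuclear receptor core AGGTCA, the C/EBP site TTGCNNAA, the EBF site (TCCC and GGGA with 2 bases between), the cyclic AMP element core TGACG, the E-box CACGTG or the GC box GGGCGG. Each sequence is written 5′ to 3′ on the strand of its gene. The Lipe promoters lie at chr7:25395938-25396237 and chr7:25390063-25390362, both on the minus strand, that of G0s2 at chr1:193273139-193273438 on the minus strand, and that of Abhd5 at chr9:122351366-122351665 on the plus strand.
Lipe, start 1: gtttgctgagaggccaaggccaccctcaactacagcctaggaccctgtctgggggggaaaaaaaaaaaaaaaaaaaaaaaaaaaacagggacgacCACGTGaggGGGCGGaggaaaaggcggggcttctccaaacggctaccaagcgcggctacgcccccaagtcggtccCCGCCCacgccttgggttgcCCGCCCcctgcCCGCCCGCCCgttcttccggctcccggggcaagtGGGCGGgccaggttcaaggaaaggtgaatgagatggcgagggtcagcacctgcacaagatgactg
Lipe, start 2: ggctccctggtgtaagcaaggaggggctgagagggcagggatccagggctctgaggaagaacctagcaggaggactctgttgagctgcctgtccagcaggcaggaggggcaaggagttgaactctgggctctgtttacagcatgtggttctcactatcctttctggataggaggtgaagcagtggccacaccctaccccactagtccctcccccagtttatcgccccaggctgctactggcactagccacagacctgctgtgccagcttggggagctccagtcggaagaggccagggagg
G0s2: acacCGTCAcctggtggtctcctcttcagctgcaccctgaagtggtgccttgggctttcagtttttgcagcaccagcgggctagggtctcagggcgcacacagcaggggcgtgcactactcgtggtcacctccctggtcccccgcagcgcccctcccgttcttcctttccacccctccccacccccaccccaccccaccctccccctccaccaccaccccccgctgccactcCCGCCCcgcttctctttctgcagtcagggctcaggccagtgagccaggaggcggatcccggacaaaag
Abhd5: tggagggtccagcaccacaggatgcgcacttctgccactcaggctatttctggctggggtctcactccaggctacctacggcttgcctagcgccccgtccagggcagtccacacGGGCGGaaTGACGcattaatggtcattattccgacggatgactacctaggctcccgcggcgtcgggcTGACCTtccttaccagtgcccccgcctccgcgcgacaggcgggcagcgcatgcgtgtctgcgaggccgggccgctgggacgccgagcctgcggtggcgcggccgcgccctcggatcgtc

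The Lipe promoters differed in these letters. The first holds 1 E-box, at -155 from the start site, and 6 GC boxes, a pair of which overlap, while the second holds no match to any motif searched. The G0s2 promoter holds a TGACG on the minus strand of the gene at -246 and a GC box at -18. The Abhd5 promoter holds a GC box at -136, a TGACG at -128 and the only AGGTCA of the 9 promoters, at -69 on the opposite strand. Over the 9 promoters, the E-box was in 3 and the GC box in 7, against 7.15% and 35.7% of the 32851 promoters in the table. TGACG was in 3 of 9, against 20.8%, and AGGTCA in 1 of 9, against 16.3%. The C/EBP site, the EBF site, the full cyclic AMP element TGACGTCA, which contains TGACG, and the DR1 motif, a pair of AGGTCA with 1 base between, were in 0 of the 9. They were in 10.8%, 0.904%, 1.79% and 0.0396% of all promoters. These are matches of letters in short windows and bear on no binding. The 9 promoters had between 60.0% and 75.0% G and C against a median of 52.7% in the table.

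Between proliferating and confluent cells, 5 of the 8 genes could be compared. Of these, 0 were at least 2-fold higher, against a background of 11.3% of all compared genes, and 0 were lower, against 5.43%. With 5 genes, a count of 0 is near these shares and says nothing particular about the set. Adrb3 and Mgll were below 1 FPKM in both libraries and were not compared. G0s2 was below 1 FPKM at day -3, so it was compared only through day 0 and could not be called lower. G0s2, at 0.98, and Lipe, at 0.95, lay just under the threshold and Prkar2b, at -0.95, just inside it on the other side. With a pseudocount of 0.1 in place of 1, G0s2 and Lipe both passed the rule, at 2.40 and 1.39, and both also passed it after rescaling to a common total, at 1.04 and 1.07. After median-ratio scaling Prkar2b passed it as lower, at -1.03.

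Induction was the step at which all the measured genes differed. Of 7 compared, 7 were at least 2-fold higher at day 2 than at day 0, where the background is 6.18% higher and 10.7% lower. Adrb3 and Mgll were below 1 FPKM at day 0, so they were compared only through day 2 and could not be called lower. The median difference of the 7 genes was 2.82, that of all compared genes -0.01. The 7 lay between the 98.45 percentile of all compared genes, for Prkar2b at 2.31, and the 99.9 percentile, for G0s2 at 5.34. At the same step all 7 adipocyte markers were higher too, with a median difference of 5.72. Of the markers, Adipoq, Plin1 and Cd36 were below 1 FPKM at day 0 and could not be called lower. The part that the adipocyte programme as a whole had in the differences of the 7 genes was not tested.

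From day 2 to day 7, 3 of 7 genes were at least 2-fold higher and 0 were lower, where the background is 9.62% higher and 5.14% lower. The 3 were Adrb3 at 2.37, G0s2 at 1.95 and Mgll at 1.73. Set end to end, 7 of 7 were higher at day 7 than at day -3 and 0 lower, against a background of 20.3% higher and 14.7% lower. Adrb3, Mgll and G0s2 were below 1 FPKM at day -3, so they were compared only through day 7 and could not be called lower. The differences of the 7 genes ran from 1.35 for Prkar2b to 8.27 for G0s2, with a median of 4.88 beside 0.07 for all compared genes. These comparisons share libraries with each other.

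**Figure D2:**
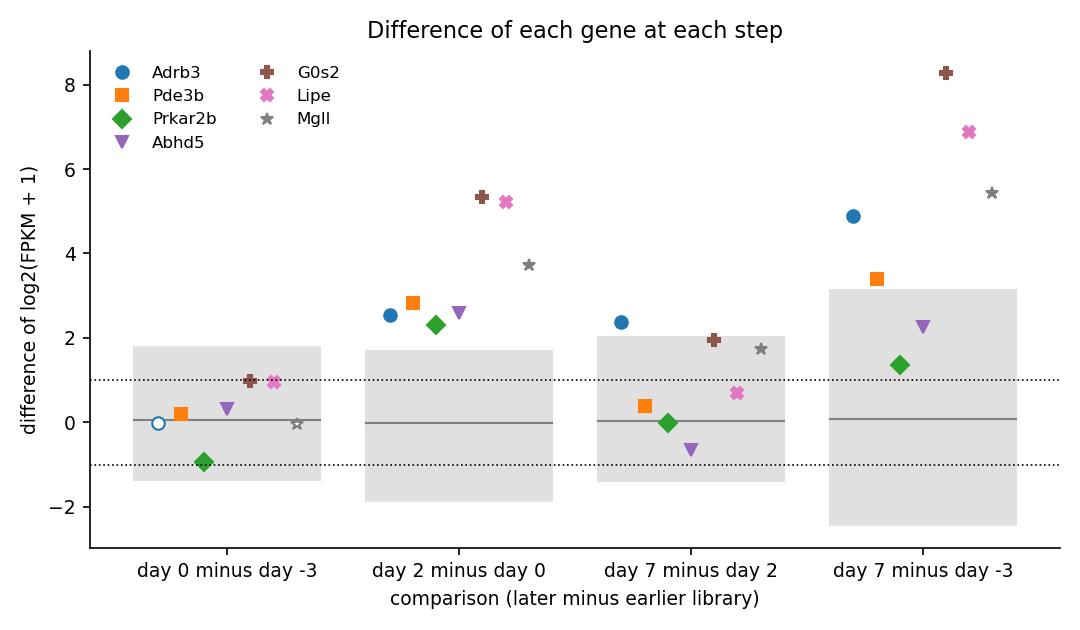
Difference of log2(FPKM + 1) for each gene at each comparison of 2 culture libraries, with open symbols for genes below 1 FPKM in both libraries. Grey boxes span the central 95% of all compared genes with their median as a line, and dotted lines mark the 2-fold rule. At day 2 minus day 0 all 7 genes lie above the box, whose upper edge is at 1.69.

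The other genes that set cyclic AMP levels were described from a list of 40, of which 35 had culture values. At the induction step, 7 of 32 compared were higher and 5 lower (median -0.15), beside 6.18% and 10.7% of all compared genes (median -0.01). At the maturation step, day 7 against day 2, 5 of 33 were higher and 3 lower (median -0.04), beside 9.62% and 5.14% (median 0.02). Over the whole course 8 of 33 were higher and 8 lower (median -0.08), beside 20.3% and 14.7% (median 0.07). At confluence 2 of 30 were higher and 3 lower (median 0.17), beside 11.3% and 5.43% (median 0.06). Some genes called higher, among them Adora1 and Hcar1 at induction and Hcar2 and Adcy5 at maturation, were below 1 FPKM in the earlier library. They could not be called lower. Adra2a at confluence and Adcy7 at induction were below 1 FPKM in the later library and could not be called higher. Rescaling to a common total gave 5 lower in place of 3 at the maturation step and 5 in place of 8 over the whole course, and a pseudocount of 5 gave 4 higher in place of 7 at induction.

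Like Adrb3, 3 receptor genes whose products couple to inhibitory G proteins and restrain lipolysis were higher at day 7 than at day 2. Adora1, the adenosine A1 receptor, was at 0.0566, 0.0323, 1.31 and 17.8 FPKM at days -3, 0, 2 and 7. Hcar1, the lactate receptor, listed as Gpr81, was at 0.0660, 0.227, 1.92 and 15.7 FPKM. Hcar2, the niacin receptor, listed as Niacr1, measured 0.0114 FPKM in proliferating cells, was listed at 0 in confluent ones, and measured 0.520 and 9.33 on days 2 and 7. Adrb3 and these inhibitory receptor genes were therefore at their highest in the same culture library. Adra2a, an inhibitory alpha-2 receptor, went the other way, at 6.29 FPKM at day -3 and 0.156, 0.459 and 0.164 after that.

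**Figure D3:**
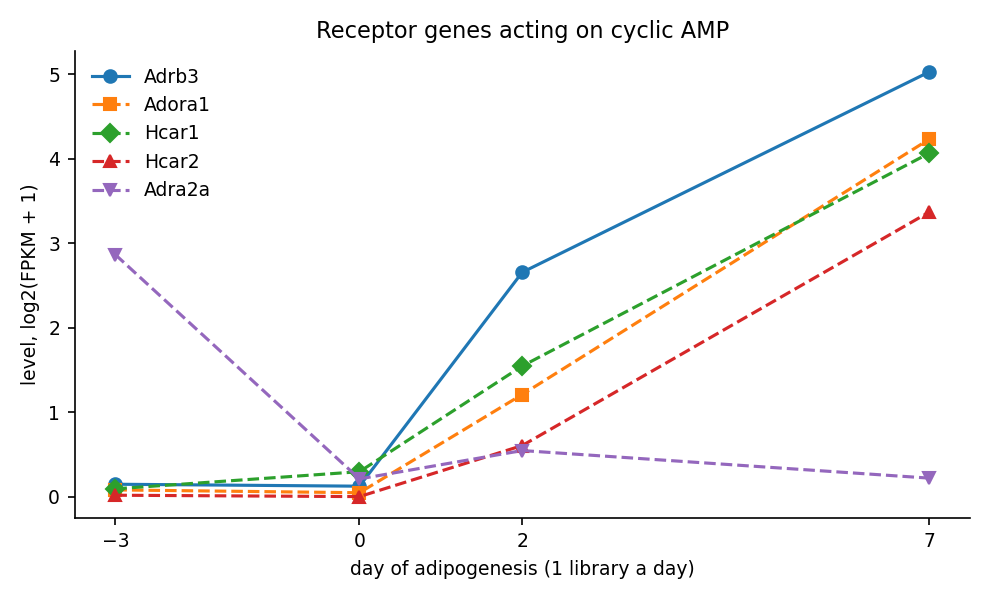
Level of 5 receptor genes by day in culture as log2(FPKM + 1), with a solid line for Adrb3 and dashed lines for receptors that couple to inhibitory G proteins. Adrb3, Adora1, Hcar1 and Hcar2 are highest at day 7, where they run from 9.33 to 31.6 FPKM, and Adra2a is highest at day -3 at 6.29 FPKM.

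Among G protein and cyclase genes, Gnai1 peaked at day 2, at 5.71, 3.07, 20.2 and 5.37 FPKM, and Gnai2 measured 247 FPKM on day 0 and 116 on day 2. Adcy6, an adenylyl cyclase inhibited by calcium, measured 35.0, 94.8 and 62.9 FPKM on days 0, 2 and 7. Adcy5, its close relative, was low on day 2, at 0.30 FPKM, and at 6.82 on day 7. Adcy7 went from 4.52 FPKM at day -3 to 10.4 at day 0 and then to 0.818 at day 2. Of the other phosphodiesterases, Pde4b measured 29.2 FPKM on day 2 and 4.85 on day 7, and Pde4a 25.3 FPKM on day -3 and 6.85 on day 7. Pde3b was above the 6 listed phosphodiesterase genes with culture values (Pde4a, Pde4b, Pde4d, Pde7a, Pde7b and Pde8a) at days 2 and 7. Arrb1, which encodes a beta-arrestin, measured 7.12 FPKM on day 0 and 20.4 on day 2. Akap1, which anchors PKA at mitochondria, was at 37.3, 19.0, 45.5 and 57.1 FPKM at days -3, 0, 2 and 7, lowest at confluence. The scaffold Akap12 was at 193, 90.1, 30.0 and 14.9 FPKM over the 4 days, and Pkia, a PKA inhibitor, at 15.4 FPKM at day 0 and 2.43 at day 2.

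PKA genes passed the rule of size among the regulatory subunits and not among the catalytic ones. Prkaca lay between 62.9 and 86.6 FPKM and Prkacb between 29.2 and 36.6 over the 4 days, within 2-fold at each step. Prkar1a was at 136, 127, 112 and 86.3 FPKM at days -3, 0, 2 and 7. Prkar2a measured 76.5 FPKM on day -3 and 19.8 on day 0, a log2 difference of -1.89. Prkar1b measured 9.24 FPKM on day 0 and 1.36 on day 2. Of the summed level of the 4 regulatory genes, Prkar2b made up 12.7% and 9.38% before induction, 37.1% on day 2, 43.2% on day 7 and 87.6% in the tissue. Prkar1a made up 54.2% at day -3, 73.7% at day 0, 44.7% at day 7 and 10.2% in the tissue. Such shares within a library do not depend on how libraries are scaled to each other. FPKM and RPKM measure transcripts, not subunits.

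**Figure D4:**
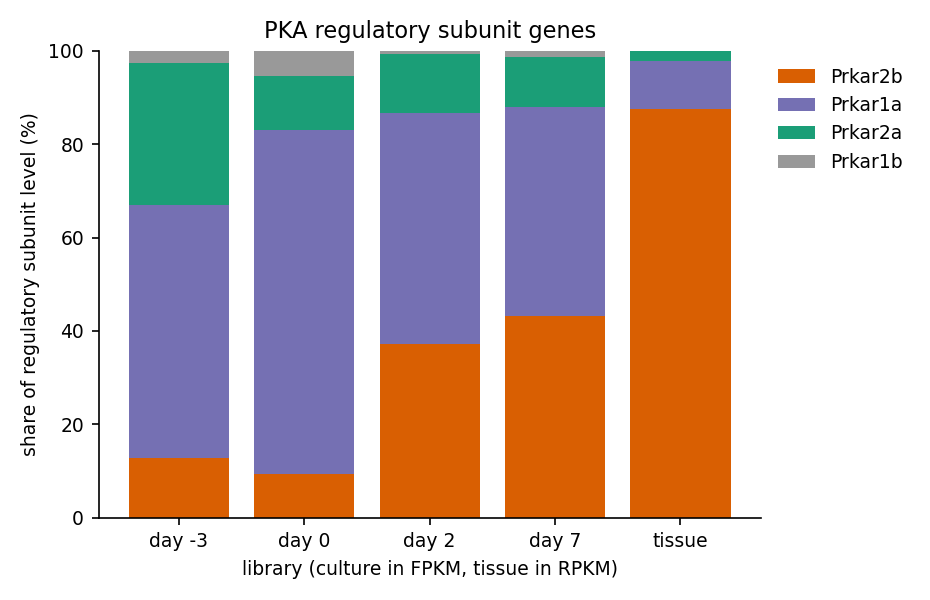
Share of each of the 4 PKA regulatory subunit genes in their summed level, by library (FPKM in culture, RPKM in tissue), 1 library a bar. Prkar2b is at 9.38% at day 0, 43.2% at day 7 and 87.6% in the tissue.

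Genes known to respond to cyclic AMP were described from a list of 10, of which 7 had culture values. The medium of the induction step held IBMX, dexamethasone, indomethacin, T3 and insulin together, and their parts cannot be told apart. At that step 1 of 7 was higher and 2 were lower (median -0.09), beside 6.18% and 10.7% of all compared genes. Counts this small differ from those shares by a gene or so. Per1 was at 9.53 and 26.8 FPKM, and the nuclear receptors Nr4a1 and Nr4a2 were at 9.12 and 2.87 and at 6.38 and 2.23. At the maturation step 3 of 7 were higher and 0 lower (median 0.46), beside 9.62% and 5.14% of all compared genes. The 3 were Nr4a1 at 8.79 FPKM at day 7, Fos at 1.64 and 8.40, and the phosphatase gene Dusp1 at 6.85 and 37.5. Dusp1 measured 29.5 FPKM on day -3 and 7.36 on day 0, the only one of the 7 past the rule at that step (median -0.33). Of all genes compared at confluence, 11.3% were higher and 5.43% lower. Over the whole course 3 were higher and 1 lower (median 0.46), beside 20.3% and 14.7%. Early response genes are known to rise and fall within hours of a stimulus, and the libraries are days apart.

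The droplet genes on which the lipases act were described from a list of 15, of which 13 had culture values. At the induction step, 7 of 10 compared were higher and 2 lower (median 1.499), beside 6.18% and 10.7% of all compared genes (median -0.01). At the maturation step 8 of 13 were higher and 1 lower (median 1.76), beside 9.62% and 5.14% (median 0.02). Over the whole course 12 of 13 were higher and 0 lower (median 3.29), beside 20.3% and 14.7% (median 0.07). At confluence 4 of 7 were higher and 0 lower (median 1.03), beside 11.3% and 5.43% (median 0.06). Plin1, Plin5, Cidea, Cidec, Pnpla3 and Aqp7 were below 1 FPKM at day -3, so over the whole course they could not be called lower. The same holds for Plin1, Cidec and Aqp7 at induction and for Plin5, Cidea and Pnpla3 at maturation. Fabp4, Plin1 and Cidea are also among the adipocyte or brown fat markers. Plin1, which holds ABHD5 at the droplet until PKA phosphorylates it, was at 0.0575, 0.0792, 30.6 and 219 FPKM at days -3, 0, 2 and 7. It thus lay below Abhd5 at day 2 and above it at day 7. Plin2 was at 39.1, 80.6, 188 and 208 FPKM, Plin4 at 1.03, 3.36, 11.0 and 48.4, and Plin3 at 18.6, 55.3, 21.8 and 42.9. Plin5, a coat protein of fat-burning tissues that also binds ABHD5, measured 0.556 FPKM on day 2 and 6.73 on day 7, and Cidea was listed at 0 until day 2 and at 8.81 FPKM at day 7. Cidec, which fuses droplets, measured 0.0448, 42.6 and 118 FPKM on the same days, 0, 2 and 7.

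Other genes of the droplet list, for the products of lipolysis, for other lipases and for lipase turnover, did not share a single course. Aqp7, a glycerol channel, measured 0.0495, 2.04 and 14.4 FPKM on days 0, 2 and 7. Fabp4, a fatty acid carrier that binds hormone-sensitive lipase, measured 37.6 and 106 FPKM before induction, 4811 on day 2 and 4070 on day 7. Acsl1, which activates fatty acids, was at 8.28, 222 and 106 FPKM at days 0, 2 and 7, a peak at day 2 like that of Abhd5. Abhd6, another monoglyceride lipase, dipped at day 2, at 10.2, 3.71 and 15.0 FPKM, and was below Mgll at days 2 and 7. Pnpla3, a relative of adipose triglyceride lipase, measured 0.187 FPKM on day 2 and 23.5 on day 7. Faf2, which takes part in the turnover of adipose triglyceride lipase, was within 2-fold at each step, between 29.5 and 43.1 FPKM.

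Among 7857 culture genes with a largest value of at least 10 FPKM, the closest in shape over the 4 libraries were found by the Euclidean distance of their centred log2(FPKM + 1) profiles. The genes closest to Adrb3 were Lrp3 (distance 0.42), Klb (0.45) and Ppargc1b (0.51). Klb, the coreceptor of FGF21, was at 37.3 FPKM at day 7. The closest to Mgll were Steap4 (0.30), Atp2a3 (0.37) and Tusc5 (0.42), and those to Lipe were Fabp4 (0.77), Rgs2 (0.82) and Cidec (0.87). G0s2 had Plin1 (1.04), Cidec (1.07) and Lipe (1.16) as its closest, at larger distances than the other genes. Pde3b was closest to Fam83a (0.23), Rtn4rl2 (0.31) and Reep6 (0.39), Prkar2b to Jag1 (0.28), Dlc1 (0.29) and Ebf1 (0.30), and Abhd5 to Etv3 (0.25), Slc1a5 (0.35) and Pank3 (0.40). Within the set, Lipe stood 3 among the genes closest to G0s2, and G0s2 10 among those closest to Lipe. Mgll stood 27 among those closest to Adrb3, and Abhd5 stood 42 among those closest to Pde3b. G0s2 stood 7830 of 7856 among those closest to Prkar2b, and Prkar2b 419 among those closest to G0s2. When Pearson's correlation over the same 4 libraries was used in place of the distance, 0 of the 3 closest genes were shared for each of the 7, so these names depend on the measure.

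In brown adipose tissue the order of the genes was another one. Values there are RPKM, reads divided by transcript length and by the number of mapped reads, by RefSeq transcript, and a gene took its highest transcript. Pnpla2 was the highest of the 8 genes, with transcripts at 652, 620 and 632 RPKM, and 27 from the top of 22463 genes. Lipe followed, with 362 and 313 RPKM for its 2 transcripts. Prkar2b was at 357 RPKM. Mgll had transcripts at 188, 171, 185 and 19.6 RPKM. Pde3b was at 66.1, G0s2 at 65.4, Adrb3 at 51.6 and Abhd5 at 18.4 RPKM. Transcripts of 1 gene share exons and reads, so their values are not independent.

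The depth of the tissue library was estimated from its smallest values, at 0.187 RPKM for 1 read on 1 kb of transcript. On 1 kb, the exact Poisson 95% interval of Abhd5 would be 14.9 to 22.3 RPKM, that of Adrb3 45.7 to 58.1, that of G0s2 58.8 to 72.7 and that of Pde3b 59.5 to 73.4. These cover counting error only. Abhd5 lies below the other 3 beyond them, while Pde3b and G0s2 are not distinguished. The depth of the culture libraries is unknown. In the tissue G0s2 was at 10.0% of the level of Pnpla2 and Abhd5 at 2.82%, and the ratio of G0s2 to Abhd5 was 3.57.

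Culture and tissue were normalized apart, in different units and by different annotations, so ranks within each library were set side by side over 10467 genes. Of 7 genes, 5 ranked higher in the tissue than in the day 7 culture, where 50.5% of all genes did, and 2 ranked lower, where 49.5% did. Adrb3 was at the 75.2 percentile in culture and the 94.7 percentile in the tissue, a difference of 19.5 points. Mgll was at 84.8 and 98.6, and Prkar2b at 93.5 and 99.4. Lipe (98.8 and 99.4) and Pde3b (95.1 and 96.0) differed by less than 1 point, and that of Pde3b turned to -0.67 when transcripts were summed. Abhd5 was at 90.1 and 83.6, and G0s2 at 99.3 and 95.9.

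**Figure D5:**
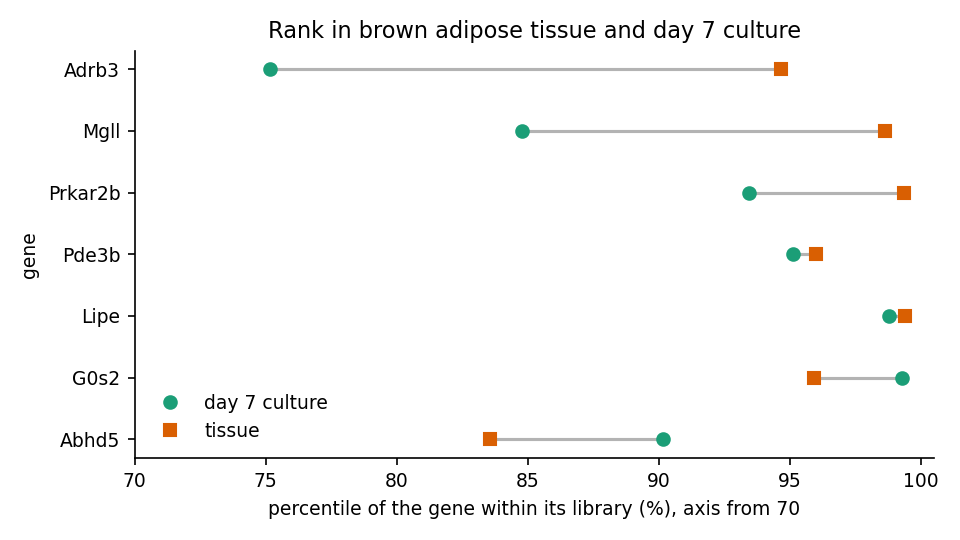
Percentile of each gene within the day 7 culture (circles) and within brown adipose tissue (squares) over 10467 genes, 1 library each, on an axis that starts at 70. Adrb3, Mgll and Prkar2b lie to the right in the tissue by 19.5, 13.9 and 5.89 points, while the differences of Abhd5 and G0s2 are -6.58 and -3.32 points.

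In values, the units differ, so the ratio of day 7 culture to tissue is given only beside that of the median gene. This ratio was 5.47 for G0s2 and 3.48 for Abhd5, both above the median ratio of 2.75 over 10275 genes above 0 in both. On the log2 scale G0s2 was 0.995 above that median and Abhd5 0.34, so Abhd5 was near it. The ratio was 1.57 for Pde3b, 0.680 for Lipe, 0.613 for Adrb3, 0.248 for Mgll and 0.234 for Prkar2b, all below the median. Pnpla2 has no culture value and so no ratio. The culture tables list only genes that passed 1 FPKM on at least 1 day, which bears on that median. Among other receptors of the tissue, Adrb1 was at 5.93 RPKM, Adra1a at 13.2, Adora1 at 29.1 and Ptger3, a prostaglandin receptor that couples to inhibitory G proteins, at 34.9. Gnas, the stimulatory G protein, was at 1272 RPKM. Plin1 was at 242 and Plin5 at 42.1 RPKM, and Ces1d, a triglyceride hydrolase of fat, at 325. The muscle markers named above, at 1167 RPKM in sum, were in the same library, and their part in these tissue values was not tested.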

How the data were processed

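RNA libraries of 5 of the 83 samples were used, the other 78 samples were not used here, and samples were grouped by title. Per the submitters' processing notes, culture files involved build mm9 and the tools TopHat2 2.0.10, Cufflinks 1.0.3, CASAVA 1.8.2 and SICER, in no stated role, and the tissue file CASAVA 1.8.2 and mm9. The annotation is not stated. mRNA was purified from total RNA, per the labels' protocols. The authors deposited culture values as FPKM by gene symbol and tissue values as RPKM by RefSeq transcript. Every culture gene reached at least 1.00 FPKM in some library.

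Values were used as deposited, with a pseudocount of 1 for log2, in Python 3.11.15 with pandas 2.3.3, numpy 2.4.6, scipy 1.17.1 and matplotlib 3.10.9. These are rules of size for pairs of libraries, not tests. Tissue transcripts were matched by accession to symbols of a GRCm38.p6 table (28436 of 29082, 97.8%), used for names only apart from the lengths of chemosensory receptor genes. With these, 31 of 31 such transcripts came out within 0.01 of a whole number of reads. Low culture values (under 0.3 FPKM) gave no common step, with no ratio of 2 libraries held by over 4.65% of genes, so culture depth is unknown. Alternatives were pseudocounts of 0.1 and 5, no filter on low values, scaling by median ratios or to a common total, rules of 1.5-fold and 4-fold, and tissue transcripts summed or averaged. The size rule and the profile search were tested on simulated data. The 8 genes and the lists were chosen with earlier results of these data known. Of the lists, genes were named when past the 2-fold rule with a larger value of at least 5 FPKM, with all receptors, PKA subunits and droplet coat genes that have values, except 1 list gene that is not reported here. Pde4a, Faf2, Klb's level, Adrb1, Adra1a, Ptger3, Gnas and Ces1d were chosen after their values were seen.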

Additional observations from a re-analysis of the deposited data

How the results depend on the processing

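With 1 library a group, no difference has a replicate check, and no replicate could be left out. No paired analysis was possible because no result comes from a test and groups hold 1 library each. Of 196 differences of single genes of the 8 recomputed under 7 alternatives, 183 kept their direction and their side of the rule, 10 moved past it, 3 fell short of it and 0 changed direction. Only scaling by median ratios or to a common total could have changed a direction. The other pseudocounts, the other rules and the lack of a filter leave the sign of a difference as it is. The count of 7 of 7 genes higher at day 2 than at day 0 was 7 under each of the 7 alternatives. That between day 7 and day -3 was 7 under 6 of them and 6 with a 4-fold rule, which Prkar2b missed. For the other counts, the cause of the changes that follow was not tested. From day -3 to day 0, the 8 genes gave 2 higher with a pseudocount of 0.1, 2 after rescaling to a common total and 2 with a 1.5-fold rule, in place of 0, and 1 lower after median-ratio scaling and 1 with a 1.5-fold rule. From day 2 to day 7 they gave 1 lower with a 1.5-fold rule and 1 higher with a 4-fold rule in place of 3. The common total shifted the median of all genes by 0.17 on the log2 scale from day -3 to day 0 and by 0.12 from day -3 to day 7.

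For the 3 pathway lists together, from day -3 to day 0 there were 6 genes higher and 4 lower. This became 2 higher with a pseudocount of 5, 10 higher and 9 lower with a 1.5-fold rule, and 0 higher and 1 lower with a 4-fold rule. From day 0 to day 2 a 4-fold rule gave 5 higher and 3 lower in place of 15 and 9 of 49. The shares of all compared genes there were 6.18% and 10.7%. From day 2 to day 7 that rule gave 1 lower in place of 4 of 53, beside 5.14%. Between day -3 and day 7, 9 of 53 were lower, beside 14.7%. The 9 became 5 with a pseudocount of 5, 15 with a 1.5-fold rule and 3 with a 4-fold rule. Shares of all compared genes are given for the main settings only, so counts under alternatives have none beside them. The rank difference of Pde3b between tissue and culture was 0.86 points and became -0.67 with summed transcripts. The share of Prkar2b among regulatory subunit genes in the tissue was 87.6% with the highest, the summed and the mean transcript, alternatives added after the data were seen. The unknown depth of the culture libraries limits what the values below 1 FPKM of Adrb3, Mgll and G0s2 can show.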
